A study of Homo sapiens with 14 samples.

Results

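The deaminase domain of human ADAR2 was compared in its Q form and its wild-type form, in both cases with a guide RNA present. The members were 4 of the 14 libraries of the series, taken by their group labels, and neither group holds a library that stands apart: 2 libraries of SA2Q+gRNA and 2 of SA2+gRNA. All libraries came from 293 Flip-In T-REx cells, an established line derived from human embryonic kidney that accepts a transgene at a defined locus. Per the labels, SA2Q+gRNA cells carried a SNAP-ADAR2Q gene, written E403Q in the sample descriptions, and received the guide. SA2+gRNA cells carried a SNAP-ADAR2 gene and received the guide. Set beside them, with no library in common, were SA1Q+gRNA and SA1+gRNA (SNAP-ADAR1Q with E406Q and SNAP-ADAR1, both with guide). So were SA1Q and SA2Q (SNAP-ADAR1Q and SNAP-ADAR2Q, both without guide) and ctrl (empty vector). The 14 libraries held no SA1 or SA2 group without guide. The sources used here name neither the guide's target nor an inducer for the transgene. Each group had 2 libraries, and the series' design text speaks of independent biological experiments.

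ADAR enzymes convert adenosine to inosine in double-stranded RNA, and inosine is read as guanosine. ADAR2, the product of ADARB1, is best known for recoding glutamate receptor transcripts in the brain. In a SNAP-ADAR the double-stranded RNA binding part is replaced by a SNAP tag, which bonds covalently to a benzylguanine guide RNA, so that the guide brings the deaminase to its transcript. The Q change swaps a glutamate in the loop that flips the adenosine out of the duplex for a glutamine and is known as a hyperactive form. The comparison asks how transcript levels differed between cells with the more active and with the natural enzyme, and says nothing of editing itself.

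The codon that differs is shown because it is the only change of sequence named between the groups. In the reference transcript of ADARB1 (GENCODE, GRCh38, chr21:45184964-45185014, plus strand, exon 8, coding) the loop glutamate is residue 488 of 701, taken here to be the E403Q of the labels, whose numbering they do not explain. Capitals mark its codon in the 51 bases below.
ADARB1 loop: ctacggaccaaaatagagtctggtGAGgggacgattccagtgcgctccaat

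Total fragments were 66.5 and 68.2 M in SA2Q+gRNA and 47.0 and 65.9 M in SA2+gRNA. Levels are given as CPM, counts scaled to library size with TMM factors on the usual CPM scale, and changes as log2 of SA2Q+gRNA over SA2+gRNA with the standard error (SE) of edgeR's fit. ADARB1 stood at 1160 and 1163 CPM in SA2Q+gRNA and at 966 and 982 CPM in SA2+gRNA, against 29.3 and 37.2 CPM in ctrl. Both compared groups thus held ADARB1 far above ctrl, and the log2 difference between them of 0.25 (SE 0.11) was not called (adjusted p = 0.583 by edgeR's quasi-likelihood test). In a fit of 12 libraries described below its adjusted p was 0.0966 (edgeR). It was called under 2 of the 18 alternative settings given at the end, so equal levels of the enzyme transcript are not shown. A count of ADARB1 adds the transgene to the cell's own gene. MGMT, the parent of the SNAP tag, had 16.4 and 17.8 CPM in SA2Q+gRNA and 22.9 and 19.9 CPM in SA2+gRNA (log2 change -0.32, adjusted p = 0.572, edgeR), and ADAR had a log2 change of -0.07 (adjusted p = 0.886, edgeR). Replicates were close, with an SD across genes of the log2 difference between replicates of 0.15 in SA2Q+gRNA and 0.19 in SA2+gRNA.

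The cells carried the markers of the line, with VIM at 958 to 1285 CPM and KRT18 at 115 to 147 CPM over the 14 libraries, and PAX2 at 2.32 to 5.26 CPM. Of the defining markers of blood and endothelial cells, PTPRC was at most 0.406, CD3E at most 0.0257, PECAM1 at most 0.116 and CDH5 at most 0.136 CPM. Other members of those lists were higher, with LCP1 at 110 to 164, CD68 at 10.7 to 21.9 and ESAM at 2.14 to 3.20 CPM. The summed level of the 8 tested of 13 blood markers was 183 and 185 CPM in SA2Q+gRNA and 172 and 172 CPM in SA2+gRNA, and that of the 4 tested of 8 endothelial markers was 4.72 and 4.61 against 3.68 and 3.62 CPM. The 23 tested of 27 matrix and fibroblast markers summed to 626 and 591 CPM in SA2Q+gRNA and 704 and 676 CPM in SA2+gRNA, with the fibroblast marker DCN at most 0.0798 CPM. The part of these small differences in the results was not tested, and in bulk RNA fewer cells of a type and less RNA per cell cannot be told apart. Among the 14 libraries, ctrl replicate 1 and SA1Q+gRNA replicate 1 stood apart from the rest on the first principal component, at scores of -39.6 and -43.9 where the 12 others had 0.3 to 13.7. Neither belongs to the groups compared, but both enter the shared estimate of the spread, so calls between SA2Q+gRNA and SA2+gRNA are given for edgeR's fit of all 14 libraries without an offset (the 14-library fit) and for a fit of the 12 others. Counts at an unadjusted p are from the 14-library fit. SA1+gRNA replicate 2 had 100% even counts and 130 M fragments, against 47.7% to 48.7% and 43.0 to 68.2 M in the other libraries. With its counts divided by 2, SA2Q+gRNA against SA2+gRNA again gave 2 calls. That division was not tried for the ADAR1 pair, which includes this library, or for the difference between the pairs.

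Few transcripts separated the Q enzyme from the wild type when the guide was present, and those that did were mostly lower with the Q enzyme. Of 16407 genes tested, 2 were called at an adjusted p under 0.05 (0.0122%, edgeR), NCAN and ASIC1, both lower in SA2Q+gRNA. None was called higher, while 466 higher (2.84%) and 825 lower (5.03%) had an unadjusted p under 0.05, a total of 1291 (7.87%) where 820 would be expected if no gene differed. In the 12-library fit, 119 of 16619 genes were called (0.716%), of which 20 were higher (0.120%) and 99 lower (0.596%). Both genes of the first fit were among the 119. DESeq2 on all libraries called 55 genes (0.252%), 6 higher (0.0275%) and 49 lower (0.225%), and all 55 were among the 119. An edgeR fit with an offset for transcript length and GC content called 36 (0.219%), again all among the 119. The calls were small, with a median absolute log2 change of 0.44 in the 119 and 8 genes past a 2-fold difference.

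**Figure D1:**
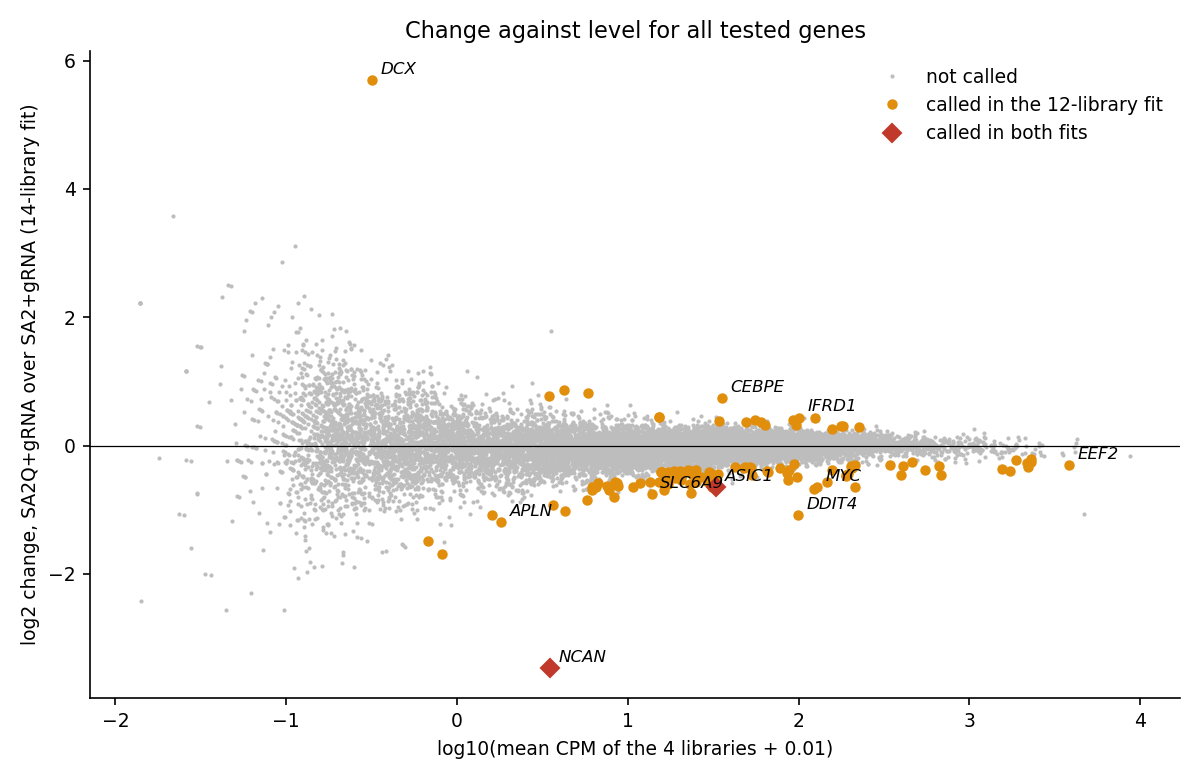
Log2 change of SA2Q+gRNA over SA2+gRNA (vertical) against log10 of the mean CPM of the 4 libraries plus 0.01 (horizontal) for all 16407 tested genes. Diamonds are the 2 genes called in both fits, orange points those called in the 12-library fit, and most orange points lie below 0.

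NCAN had by far the largest fall among called genes. NCAN encodes neurocan, a chondroitin sulfate proteoglycan of the nervous system (NM_004386, hg19 chr19:19322782-19363061, plus strand). It had 0.558 and 0.594 CPM in SA2Q+gRNA, against 5.84 and 6.97 CPM in SA2+gRNA. The groups lay far apart, 11.1-fold, with a log2 change of -3.47 (SE 0.34, adjusted p = 0.000571, edgeR). SA2Q without guide had 0.585 and 0.441 CPM, SA1Q without guide 1.22 and 1.22 CPM, and ctrl 0.334 and 0.473 CPM. The libraries high in NCAN were those of the wild-type enzymes with guide, and the ADAR1 pair had the same order, with 3.04 and 1.36 CPM in SA1Q+gRNA and 5.68 and 9.41 CPM in SA1+gRNA (log2 change -1.84, SE 0.29, adjusted p = 0.00976, edgeR). Scaled to transcript length, NCAN was a rare transcript in both groups, at a mean of 0.0846 FPKM in SA2Q+gRNA and 0.938 FPKM in SA2+gRNA.

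ASIC1 was the other gene that fell in the 14-library fit. It encodes an acid-sensing sodium channel of neurons (NM_020039, hg19 chr12:50451420-50477405, plus strand). It had 25.4 and 26.0 CPM in SA2Q+gRNA and 41.3 and 39.2 CPM in SA2+gRNA. The log2 change was -0.65 (SE 0.09, adjusted p = 0.0186, edgeR). SA2Q without guide had 29.4 and 29.6 CPM and ctrl 35.0 and 37.5 CPM, between the groups compared. In the ADAR1 pair the change of -0.25 (SE 0.09) was not called (adjusted p = 0.161, edgeR), and the difference between the pairs was not called either (adjusted p = 0.371). ASIC1 rests on all 4 libraries, since its adjusted p was 0.0538 to 0.862 when any one of them was left out.

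**Figure D2:**
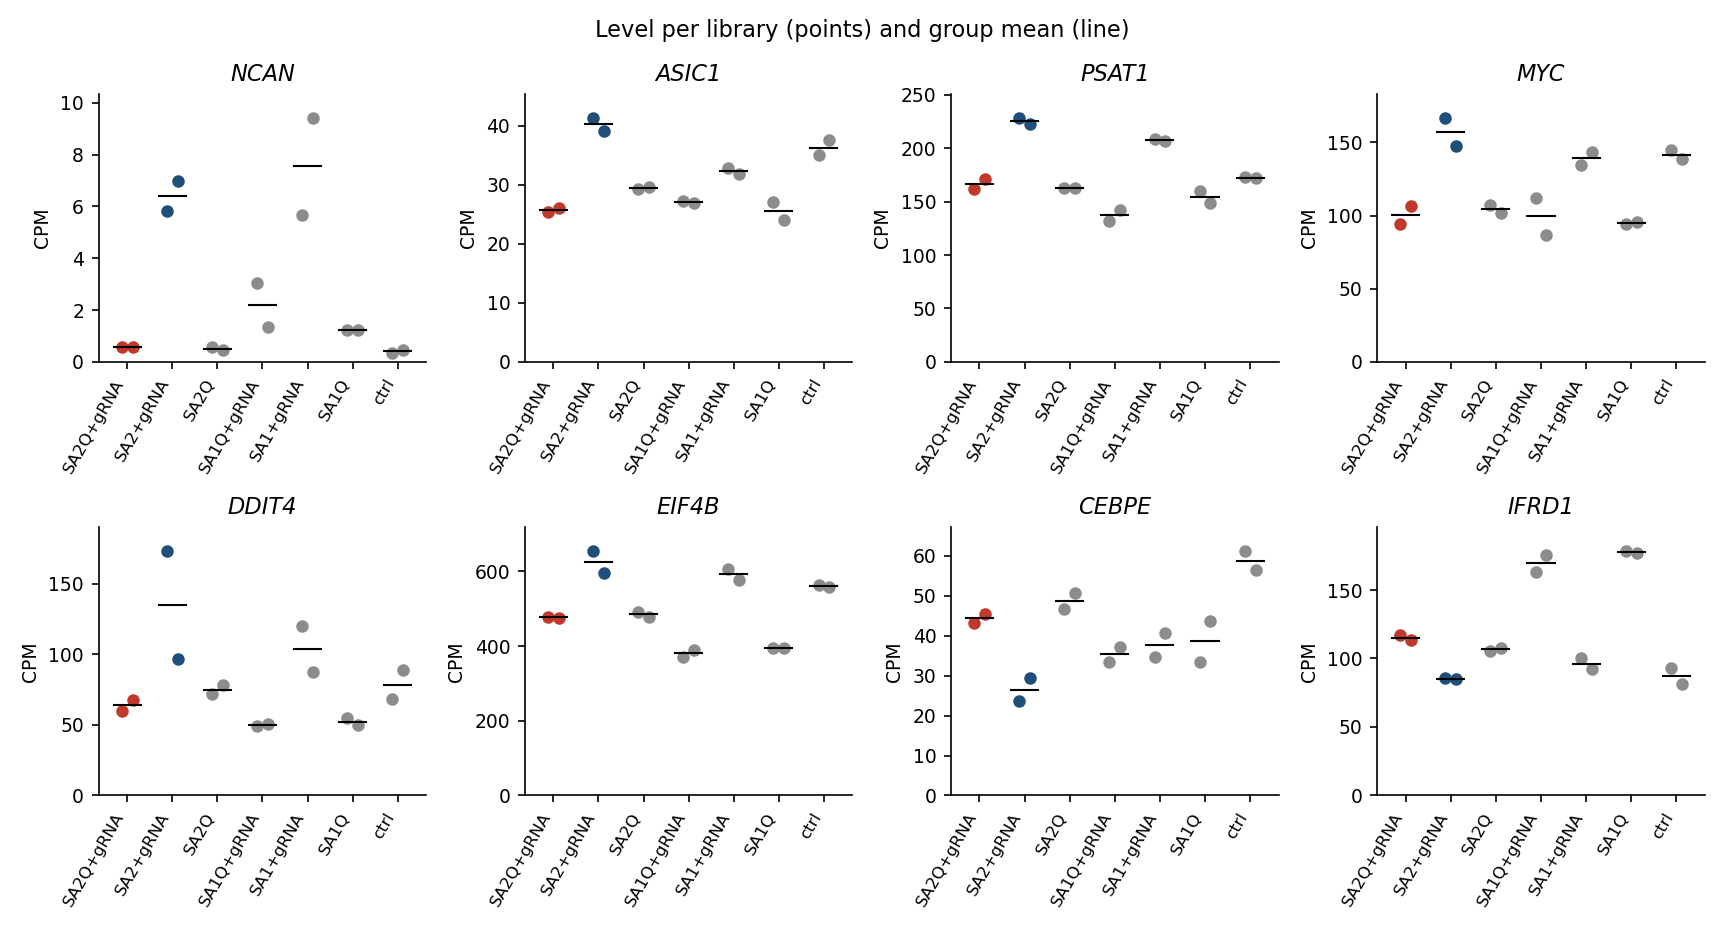
CPM per library (points) and group mean (line) of 8 genes over the 7 groups, with SA2Q+gRNA in red and SA2+gRNA in blue. NCAN is high in the groups with a wild-type enzyme and guide, and in SA2Q+gRNA the other genes lower than in SA2+gRNA (ASIC1, PSAT1, MYC, DDIT4, EIF4B) lie near their level in SA2Q.

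Behind these came genes whose libraries did not overlap between the groups and that were called in the 12-library fit but not in the 14-library fit. DESeq2 on all libraries also called the 4 described next, and the offset fit called MYC and FBXL16. MYC, a transcription factor that drives growth, had 94.2 and 107 CPM in SA2Q+gRNA and 167 and 148 CPM in SA2+gRNA (log2 change -0.65, SE 0.11, adjusted p = 0.108 with 14 libraries and 0.000684 with 12, edgeR). SA2Q without guide had 107 and 101 CPM and ctrl 145 and 139 CPM, so MYC was lower in both Q groups than in every library of ctrl and SA2+gRNA. FBXL16, which encodes an F-box protein, had 23.2 and 25.6 CPM in SA2Q+gRNA and 42.8 and 33.5 CPM in SA2+gRNA (log2 change -0.64, adjusted p = 0.129 and 0.00654, edgeR). MATK, a kinase that inhibits Src family kinases, had 19.4 and 21.2 against 32.1 and 28.3 CPM (log2 change -0.57, adjusted p = 0.147 and 0.00443, edgeR). LOXL1, an enzyme that cross-links elastin, had 8.82 and 9.90 against 14.7 and 13.4 CPM (log2 change -0.58, adjusted p = 0.147 and 0.0125, edgeR), and it overlaps LOXL1-AS1 on the opposite strand.

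Higher in SA2Q+gRNA with the smallest p was CEBPE, a C/EBP transcription factor known from granulocytes (hg19 chr14:23586515-23588820, minus strand). It had 43.1 and 45.5 CPM in SA2Q+gRNA and 23.6 and 29.4 CPM in SA2+gRNA (log2 change 0.74, SE 0.13, adjusted p = 0.129 with 14 libraries and 0.006 with 12, edgeR). SA2+gRNA was the lowest of the 7 groups by mean, SA2Q lay at 46.6 and 50.8 CPM, and ctrl was the highest with 61.1 and 56.5 CPM. IFRD1, an interferon-related developmental regulator, had 117 and 114 CPM in SA2Q+gRNA and 85.5 and 85.2 CPM in SA2+gRNA (log2 change 0.43, SE 0.08, adjusted p = 0.147 and 0.00229, edgeR). The vesicle fusion protein gene STX3 (log2 change 0.40), the zinc finger gene ZNF93 (0.86), ERRFI1, an inhibitor of the EGF receptor (0.37), and PERP, a desmosome protein gene and p53 target (0.31), were also called in the 12-library fit, with adjusted p from 0.012 to 0.0365 (edgeR). OSGIN1, an oxidative stress response gene, LSMEM1 and the antisense RNA FBXL19-AS1 were among those with the smallest p but were called in neither fit (adjusted p = 0.0574 to 0.0694 with 12 libraries, edgeR).

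Genes of amino acid supply and the integrated stress response, the program that ATF4 runs when translation initiation is restrained, were lower in the Q group more often than the other way. Of 41 tested members, none was called in the 14-library fit. With 12 libraries 5 were called lower (PSAT1, SLC6A9, DDIT4, SLC7A11 and STC2) and none higher, where 0.596% and 0.120% of all genes were. DESeq2 on all libraries and the offset fit called these 5 too. At an unadjusted p under 0.05, 19 were lower and 4 higher, where 5.03% and 2.84% of all genes were. A log2 change below 0 was found in 32 of the 41, against 8169 of all 16407 genes. The median log2 change of the list was -0.21, against 0.00 for all genes, and it was -0.16 to -0.26 without any one of the 4 libraries.

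PSAT1, an enzyme of serine synthesis, had 161 and 171 CPM in SA2Q+gRNA and 228 and 222 CPM in SA2+gRNA (log2 change -0.44, SE 0.07, adjusted p = 0.108 with 14 libraries and 0.0018 with 12, edgeR). SLC6A9, a glycine transporter, had 9.78 and 10.7 against 18.4 and 16.3 CPM (log2 change -0.76, adjusted p = 0.108 and 0.00229, edgeR), and it overlaps CCDC24 on the opposite strand. Separate libraries were a condition for naming both genes. PSAT1 stood at 162 and 163 CPM in SA2Q and at 173 and 172 CPM in ctrl, so SA2+gRNA was the highest of these groups. SLC7A11, the cystine transporter, had 16.97 and 16.50 against 24.7 and 23.9 CPM (log2 change -0.54, adjusted p = 0.24 and 0.0118, edgeR). STC2, a secreted glycoprotein induced by stress, had 68.3 and 72.4 against 115 and 89.6 CPM (log2 change -0.54, adjusted p = 0.187 and 0.0125, edgeR). DDIT4, an inhibitor of mTORC1, had 59.7 and 67.8 CPM in SA2Q+gRNA and 173 and 96.8 CPM in SA2+gRNA (log2 change -1.08, SE 0.21, adjusted p = 0.147 and 0.00766, edgeR), so that replicate 1 of SA2+gRNA stood well above its partner. Among the regulators, the log2 change was -0.15 for ATF4 itself, -0.19 for TRIB3 and 0.38 for DDIT3, none of them called in either fit. PHGDH (-0.30), ASNS (-0.34) and CHAC1 (-0.55), which serve serine synthesis, asparagine synthesis and glutathione breakdown, were also below 0 and not called.

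**Figure D3:**
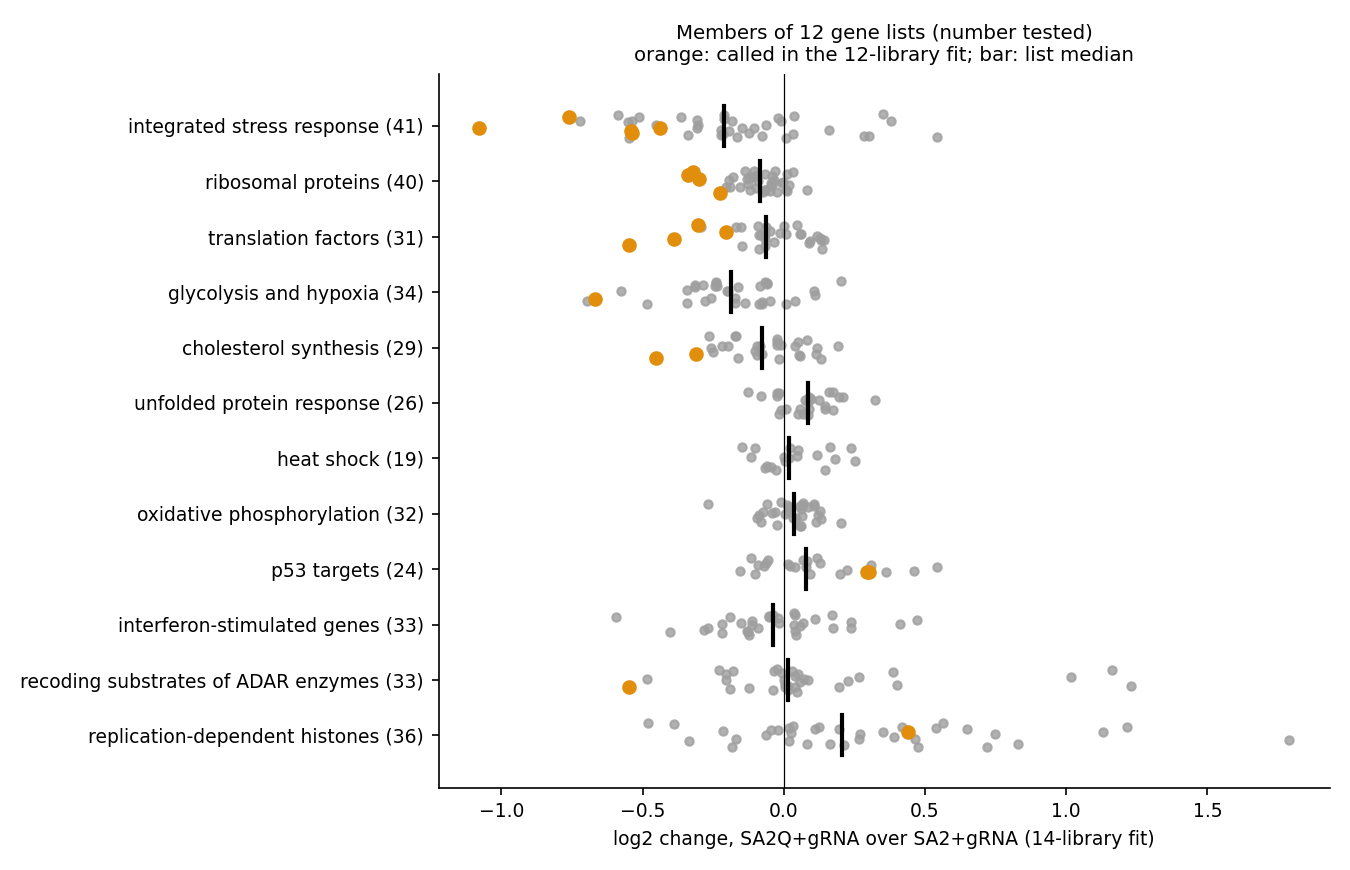
Log2 change of SA2Q+gRNA over SA2+gRNA for each tested member (point) of 12 gene lists, with the number tested beside the name, the list median as a bar and members called in the 12-library fit in orange. The stress response list has its median at -0.21, the ribosomal protein list at -0.08, and the histone list at 0.21.

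Ribosomal protein genes lay slightly lower in SA2Q+gRNA, while translation factors and snoRNA host genes lay on both sides of 0. No ribosomal protein gene was called in the 14-library fit or by DESeq2, and the offset fit called RPL3 and RPS9. At an unadjusted p under 0.05, 5 were lower, and 4 of 40 were called lower with 12 libraries (RPL3, RPS9, RPL28 and RPL13). Over all genes, 5.03% were lower at that unadjusted p and 0.596% were called lower with 12 libraries. In 30 of the 40 both SA2Q+gRNA libraries lay below both SA2+gRNA libraries and in none above, where 24.0% of all genes were separate in that direction and 23.6% in the other. The sizes were small, with a median of -0.08 and a range of -0.34 to 0.08. RPL3 had 1920 and 1955 CPM in SA2Q+gRNA and 2510 and 2395 CPM in SA2+gRNA (log2 change -0.34, adjusted p = 0.328 and 0.00229, edgeR). RPS9 had 582 and 601 against 730 and 749 CPM (log2 change -0.32, adjusted p = 0.54 and 0.0129, edgeR). Ribosomal protein genes have many processed pseudogenes, and their counts are uncertain for that reason. Of 31 translation factors, 19 were below 0 and 12 above, with a median of -0.06, or -0.02 without SA2+gRNA replicate 1. In the 12-library fit 4 were called lower (0.596% of all genes) and in the 14-library fit none, with 5 lower at an unadjusted p under 0.05 (5.03% of all genes). DESeq2 and the offset fit called EIF4B. EIF4B, a helper of the initiation helicase, had 478 and 476 CPM in SA2Q+gRNA and 653 and 595 CPM in SA2+gRNA (log2 change -0.39, SE 0.07, adjusted p = 0.129 and 0.00229, edgeR). EEF2, the elongation factor that moves the ribosome, had 3442 and 3462 against 4382 and 4135 CPM (log2 change -0.30, adjusted p = 0.0136 with 12 libraries, edgeR), and with 12 libraries its kinase EEF2K fell by 0.54 and EEF1G by 0.20 on the log2 scale. SNHG5, a host gene of small nucleolar RNAs, had 138 and 134 against 177 and 180 CPM (log2 change -0.39, adjusted p = 0.328 and 0.0224, edgeR). The 15 tested snoRNA host genes were split, with 8 below 0 and 7 above and a median of -0.06. That median was 0.00 when either SA2+gRNA library was left out.

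Many transcripts of the translation machinery start with a run of pyrimidines, the 5′ TOP element through which mTORC1 controls their translation. The 30 bases around the annotated start, 10 before it and 20 from it, are shown (RefSeq, GRCh38.p14). The 9 genes are those of these lists called in the 12-library fit. Capitals mark the longest run of C and T in the window, read on the strand of the transcript. A marked run need not begin at the start. That of EEF2K lies wholly before it, and those of EIF4B and EEF1G begin after it, that of EIF4B reaching the window's end. For RPL13, which has 3 annotated starts, the one with the longest run is given.
RPL3 (chr22:39319604-39319633, minus strand): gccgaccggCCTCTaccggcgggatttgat
RPS9 (chr19:54200848-54200877, plus strand): gcttccgcgCCTCTTTCTCagtgaccgggt
RPL28 (chr19:55385922-55385951, plus strand): cctcgCCTTCCTCTTTCCgtctcaggtcgc
RPL13 (chr16:89560672-89560701, plus strand): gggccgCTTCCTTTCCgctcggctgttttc
EIF4B (chr12:53006446-53006475, plus strand): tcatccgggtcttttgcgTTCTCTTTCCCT
EEF2K (chr16:22206268-22206297, plus strand): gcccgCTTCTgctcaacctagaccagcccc
EEF2 (chr19:3985444-3985473, minus strand): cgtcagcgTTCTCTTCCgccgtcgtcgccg
EEF1G (chr11:62573872-62573901, minus strand): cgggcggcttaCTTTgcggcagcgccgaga
SNHG5 (chr6:85678714-85678743, minus strand): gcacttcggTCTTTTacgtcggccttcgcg
A run of at least 8 stood in this window in 5 of the 9, a length chosen after the sequences were seen. Runs were counted wherever they lay in the window, so EIF4B is among the 5. It stood in 28 of 31 ribosomal protein genes (90.3%), 7 of 23 translation factor genes (30.4%) and 3 of 13 snoRNA host genes (23.1%) that were tested and in the table, and in 15.4% of all 27305 genes of the table. Of the 4 ribosomal protein genes shown, RPL3 had no such run. A match of letters is a description and not evidence of control.

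Glycolysis and hypoxia-response genes lay mostly below 0, 29 of 34, against 8169 of all 16407 genes. The amount depended on which SA2+gRNA library was kept. None of the 34 was called in the 14-library fit, and NDRG1, a stress and hypoxia-induced gene, was called lower with 12 and by DESeq2. NDRG1 had 92.3 and 99.0 CPM in SA2Q+gRNA and 185 and 120 CPM in SA2+gRNA (log2 change -0.67, adjusted p = 0.256 and 0.0363, edgeR), again with replicate 1 of SA2+gRNA the highest. The list had 12 members lower and none higher at an unadjusted p under 0.05, where 5.03% of all genes were lower and 2.84% higher. Its median was -0.19. The median was -0.05 without SA2+gRNA replicate 1 and -0.32 without SA2+gRNA replicate 2. Among the lipid genes, INSIG1, which holds back sterol regulation in the endoplasmic reticulum, had 153 and 169 against 223 and 218 CPM (log2 change -0.45, adjusted p = 0.187 and 0.00229, edgeR). HMGCS1, an early enzyme of cholesterol synthesis, fell by 0.31 on the log2 scale (adjusted p = 0.0426 with 12 libraries, edgeR), and 20 of 29 genes of the list were below 0. None of the 29 was called in the 14-library fit, with 3 lower and 1 higher at an unadjusted p under 0.05, and DESeq2 and the offset fit called INSIG1.

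The lists with a median above 0 had few calls. Of 24 p53 targets, none was called in the 14-library fit or by DESeq2 and 6 were higher at an unadjusted p under 0.05, where 2.84% of all genes were. With 12 libraries AEN, a nuclease of apoptosis, and TNFRSF10B, a death receptor, were called higher, where 0.120% of all genes were. AEN had 197 and 193 CPM in SA2Q+gRNA and 155 and 161 CPM in SA2+gRNA (log2 change 0.30, adjusted p = 0.0224 with 12 libraries, edgeR). TNFRSF10B had 260 and 237 against 194 and 211 CPM (log2 change 0.29, adjusted p = 0.0363 with 12 libraries, edgeR), and overlaps RHOBTB2 and TNFRSF10B-AS1 on the opposite strand. CDKN1A, the cell cycle inhibitor most often read for p53, had a change of 0.36 and was not called, and the list median was 0.08, or 0.01 without SA2+gRNA replicate 2. Replication-dependent histones, whose mRNAs end in a stem-loop in place of a poly(A) tail and are poorly sampled by poly(A) selection, had a median of 0.21, with 27 of 36 above 0 and 16 separate upward, and 5 higher at an unadjusted p under 0.05. Over all genes, 8234 of 16407 were above 0 and 23.6% were separate upward. The member called with 12 libraries, H2AC18, shares its sequence with H2AC19, so its counts are uncertain. H2BC11 shows how variable they were, with 1.99 and 8.97 CPM in SA2Q+gRNA and 1.58 and 1.59 CPM in SA2+gRNA. The 26 unfolded protein response genes had a median of 0.09, 2 higher at an unadjusted p under 0.05, and no call in either fit or by DESeq2.

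Genes tied to RNA editing and to the sensing of RNA gave few calls. Over all genes, 2.84% were higher and 5.03% lower at an unadjusted p under 0.05, and 0.120% were called higher and 0.596% lower with 12 libraries. Of 33 recoding substrates of ADAR enzymes tested in the 14-library fit none was called there, with 3 higher and 1 lower at an unadjusted p under 0.05, and none by DESeq2. Of the 30 tested in the 12-library fit EEF2K was called lower, and the list median was 0.02. The log2 change was 0.04 for FLNA, a filamin and a classic substrate, 0.02 for AZIN1, a regulator of polyamine synthesis, and -0.18 for NEIL1, a DNA repair glycosylase. Of 33 interferon-stimulated genes none was called in either fit or by DESeq2, with 2 higher and 1 lower at an unadjusted p under 0.05 and a median of -0.04. The log2 change was 0.04 for ISG15 and -0.40 for IFIT1. Of 18 sensors and adaptors of foreign nucleic acid, TRIM25, a ubiquitin ligase of the RIG-I pathway, was called lower with 12 libraries, with 84.0 and 85.1 CPM in SA2Q+gRNA and 104 and 103 CPM in SA2+gRNA (log2 change -0.29, adjusted p = 0.0392, edgeR). It was not called in the 14-library fit (adjusted p = 0.379, edgeR), by DESeq2 (adjusted p = 0.148) or in the offset fit (adjusted p = 0.0661, edgeR). No other member was called in any of these. The 18 genes of inosine and double-stranded RNA binding, and the 28 S phase, 28 mitotic, 32 oxidative phosphorylation and 19 heat shock genes gave no call in either fit or by DESeq2, with medians between -0.03 and 0.04 and 0 to 3 members of each at an unadjusted p under 0.05. GAPDH had 3896 and 4145 against 4373 and 4220 CPM (log2 change -0.10), and the log2 change was -0.06 for ACTB and 0.07 for GUSB, none called in either fit.

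Among 33 tested genes of neuronal lineage, with a median of 0.00, NEFL and DCX were called with 12 libraries and went opposite ways. None was called in the 14-library fit, with 2 higher and 2 lower at an unadjusted p under 0.05. Over all genes, 2.84% were higher and 5.03% lower at that threshold, and 0.120% were called higher and 0.596% lower with 12 libraries. NEFL, a neurofilament subunit, had 121 and 117 CPM in SA2Q+gRNA and 204 and 149 CPM in SA2+gRNA (log2 change -0.57, adjusted p = 0.256 and 0.0203, edgeR). DCX, the microtubule protein doublecortin, was nearly silent in every group, with 54 and 22 fragments in SA2Q+gRNA and 1 and 0 in SA2+gRNA. The ratio was 63.5 with an exact 95% interval of 11.1 to 2540 that covers counting error only. DCX was called in the 12-library fit (adjusted p = 0.00731, edgeR) but not in the 14-library fit (adjusted p = 0.147, edgeR). It was present in both SA2Q groups, since SA2Q without guide had 33 and 31 fragments, and low in ctrl with 4 and 0. Of 34 HOX genes, HOXA13 alone was called with 12 libraries, with 19.8 and 20.3 CPM in SA2Q+gRNA and 29.1 and 25.6 CPM in SA2+gRNA (log2 change -0.45, adjusted p = 0.0378, edgeR), and none was called in the 14-library fit or by DESeq2, with 2 higher and 2 lower at an unadjusted p under 0.05. The 32 immediate early genes had a median of 0.11, with 21 above 0 and 11 below, and 4 higher and 2 lower at an unadjusted p under 0.05. MYC and BTG1 were called lower in the 12-library fit and by DESeq2, MYC also in the offset fit, and none was called in the 14-library fit. The lists of 8 deaminases, 5 guide targets of earlier SNAP-ADAR work, 20 oxidative and metal stress genes, 14 kidney and 293 markers, 8 nuclear-retained RNAs, 24 zinc finger genes of 19p12, 24 calcium channel genes and 18 housekeeping genes gave no call in either fit or by DESeq2, with medians between -0.06 and 0.04 and 0 to 2 members of each at an unadjusted p under 0.05.

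The 8 genes past a 2-fold difference in the 12-library fit, picked after their values were seen, were mostly rare transcripts. Beside NCAN, DCX and DDIT4 they were TSPOAP1, COL24A1, APLN, SHISA3 and THBS4, all lower in SA2Q+gRNA. APLN, the gene of the peptide apelin, had 1.26 and 0.937 CPM in SA2Q+gRNA and 2.50 and 2.53 CPM in SA2+gRNA. THBS4, a matrix thrombospondin, had 2.76 and 2.87 against 5.91 and 5.50 CPM, and its change in the ADAR1 pair had the other sign at 0.69 (adjusted p = 0.17, edgeR). Among the abundant genes, IRS4, an insulin receptor substrate strongly expressed in this line, had 578 and 580 CPM in SA2Q+gRNA and 828 and 764 CPM in SA2+gRNA, a log2 change of -0.46 (adjusted p = 0.256 and 0.00468, edgeR).

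The same change of enzyme form in ADAR1 gave a pair with no library in common. There 158 of 16407 genes were called (0.963%, edgeR), 74 higher (0.451%) and 84 lower (0.512%) in SA1Q+gRNA than in SA1+gRNA. Of the 84 lower genes, 74 were also below 0 in the ADAR2 pair, 44 of them at an unadjusted p under 0.05, and none was above 0 at that threshold. Of the 74 higher genes, 48 were above 0 in the ADAR2 pair, 12 at an unadjusted p under 0.05, and 3 were below 0 at that threshold. Over all 16407 genes, 8169 were below 0 in the ADAR2 pair and 8234 above, with 825 and 466 at that threshold. Without SA1Q+gRNA replicate 1, the ADAR1 pair gave 41 lower genes, of which 39 were below 0 in the ADAR2 pair, and 17 higher, of which 15 were above 0. In all, 26 genes were called in the ADAR1 pair and in the 12-library fit of the ADAR2 pair, among them NCAN, PSAT1, SLC6A9, DDIT4, SLC7A11, STC2, EIF4B, SNHG5, NDRG1, INSIG1 and IFRD1.

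For several of the shared genes the value lay nearer to 0 in the ADAR2 pair. The log2 change of SLC7A11 was -0.54 in the ADAR2 pair and -1.22 in the ADAR1 pair, that of SNHG5 was -0.39 in the ADAR2 pair and -1.09 in the ADAR1 pair, and that of IFRD1 was 0.43 in the ADAR2 pair and 0.82 in the ADAR1 pair. CEBPE had 0.74 in the ADAR2 pair and -0.09 in the ADAR1 pair. The direct test of the difference between the pairs called no gene of 16407 (0.00%, edgeR), with 1544 at an unadjusted p under 0.05 (9.41%), so none of these differences passed. Its unadjusted p was 0.000213 for LOXL1, 0.000221 for SNHG5 and 0.000448 for CEBPE (adjusted p = 0.235, 0.235 and 0.306, edgeR). Without SA1Q+gRNA replicate 1 it also gave 0 calls. Leaving out SA1Q+gRNA replicate 2, which leaves SA1Q+gRNA to the library that stood apart, gave 326 calls for this test.

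**Figure D4:**
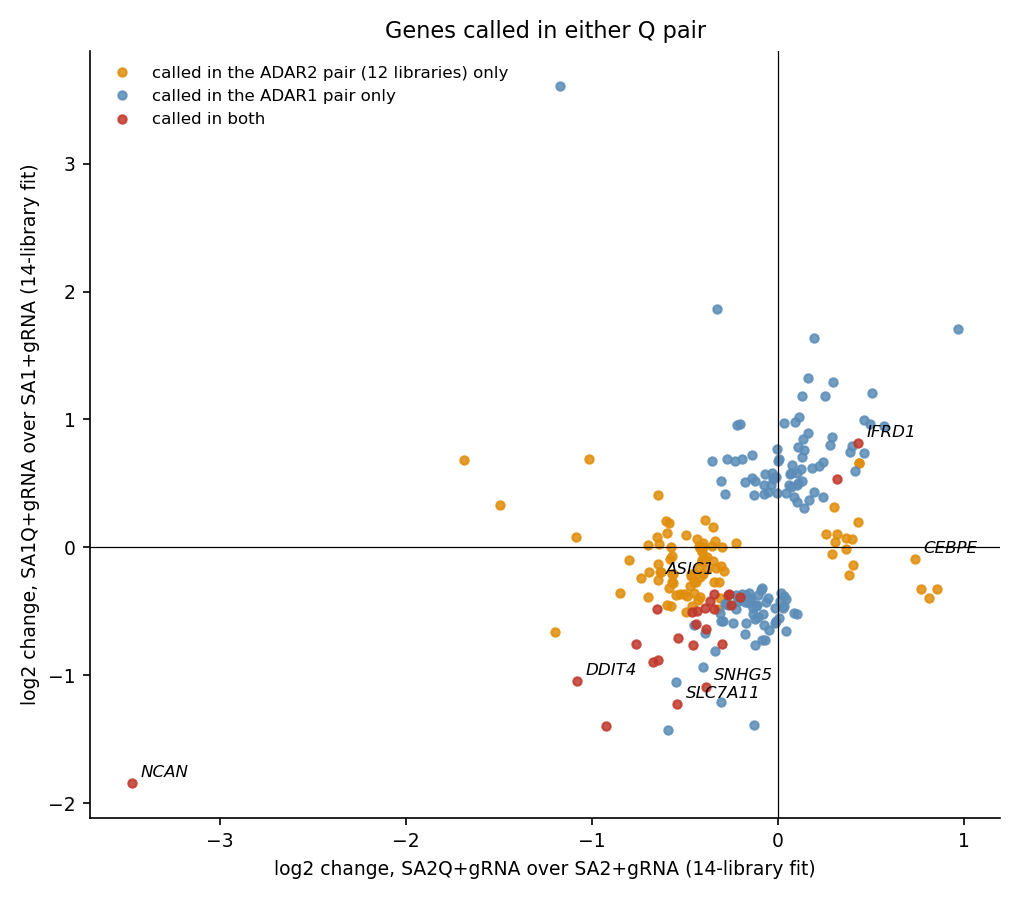
Log2 change of SA1Q+gRNA over SA1+gRNA (vertical) against that of SA2Q+gRNA over SA2+gRNA (horizontal), for genes called in the ADAR1 pair (158) or in the 12-library fit of the ADAR2 pair (119). The 26 genes called in both lie in the quadrants of equal sign, and DCX lies outside the range drawn.

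In the Q enzyme without guide against the empty vector, SA2Q against ctrl, 14 genes were called (0.0853%, edgeR), 9 higher (0.0549%) and 5 lower (0.0305%), and 8 without ctrl replicate 1. Of the 9 higher genes, 6 were above 0 in SA2Q+gRNA against SA2+gRNA, among them ADARB1, whose count includes the transgene. Of the 5 lower, 4 were below 0. Over all 16407 genes, 8234 were above 0 and 8169 below, and agreement between the 2 comparisons was not tested. NCAN (log2 change 0.31) and ASIC1 (-0.30) were not called there.

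**Figure D5:**
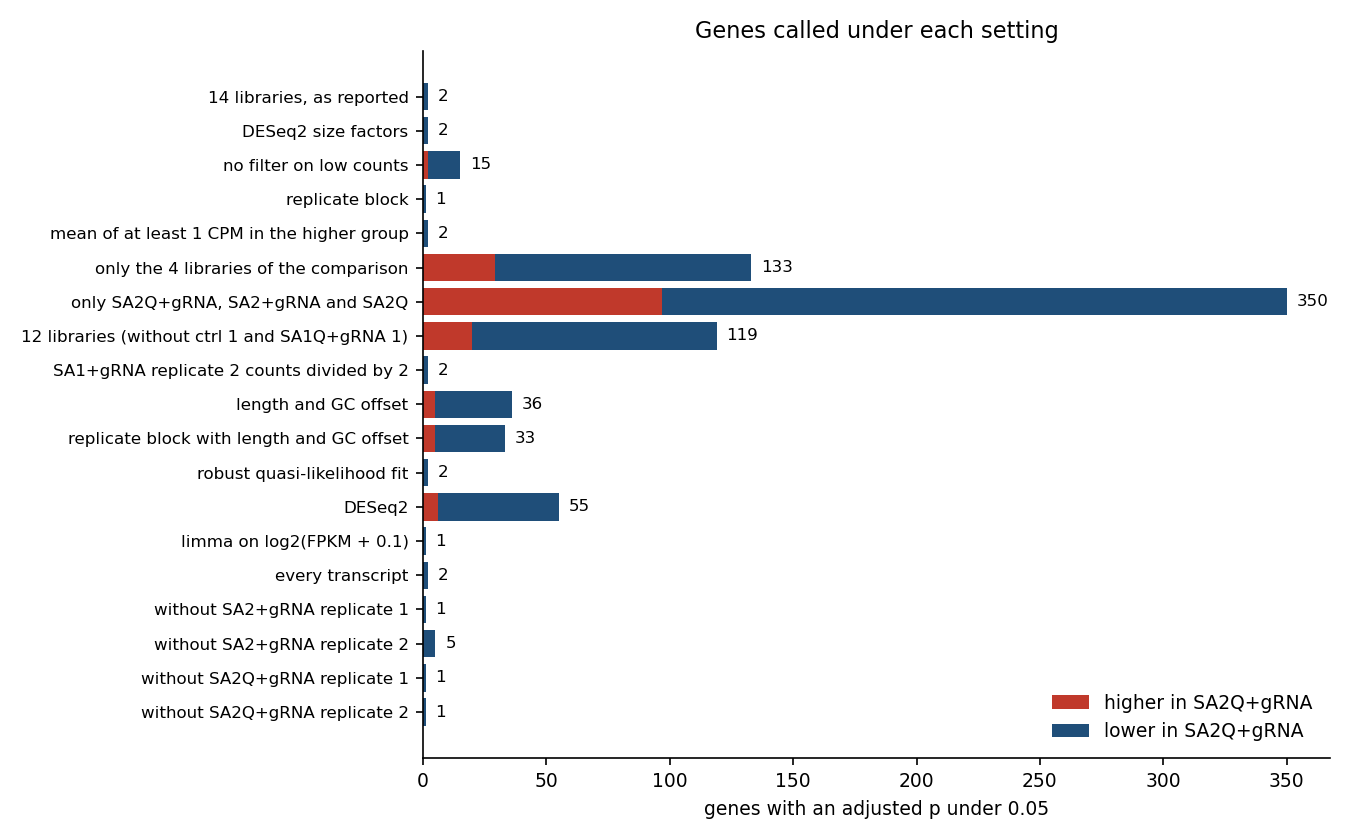
Number of genes with an adjusted p under 0.05 in SA2Q+gRNA against SA2+gRNA under each setting, split into higher (red) and lower (blue) in SA2Q+gRNA. Lower calls outnumber higher ones wherever both occur, and the count runs from 1 to 350.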

How the data were processed

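The deposited files held, per the file headers, whole-number fragment counts per RefSeq transcript, FPM (a signal scaled to the library total) and FPKM. Counts were tested, FPM was used to pick a transcript per gene and recover library totals, and FPKM entered 1 alternative. Per the labels' protocols, poly(A) RNA was sequenced paired-end with a stranded kit, and the build hg19 and the tools STAR 2.4.2a and Trim Galore are listed, per the submitters' processing notes. The sources used here name no counting tool and no strand setting, so genes that overlap others or have near copies are uncertain.

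Accessions were named with RefSeq (44381 of 45595) and GENCODE (565) tables. Transcripts under 200 nucleotides and the 887 entries without a name (0.81% of counts) were left out, and each gene was its transcript with the highest mean FPM (22395 genes). edgeR 4.0.16 in R 4.3.3 (TMM, filterByExpr with minimum count 10, quasi-likelihood test, two-sided, Benjamini-Hochberg) was fitted over all 14 libraries, leaving 16407 genes and 7 residual degrees of freedom, with a common biological coefficient of variation of 8.67%. The alternatives used DESeq2 1.42.0, limma 3.58.1 with a pseudocount of 0.1, other scalings, filters and libraries. The procedure was tested on simulated data. With 2 libraries per group, p-values measure a spread between replicates that is pooled over all groups of the fit, and not that of the 4 compared libraries alone.

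The members, the 31 gene lists and the tests were chosen with earlier results of these data known. Named genes were ADAR, ADARB1, MGMT, ACTB, GAPDH and GUSB, the called genes, the 10 smallest p each way among genes with separate libraries and at least 1 CPM in the higher group, and up to 4 genes per list. A gene that met these rules is not reported here. Since almost nothing was called with 14 libraries, the list genes described are those called with 12, and they and other genes beyond the rule were chosen after their values were seen.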

Additional observations from a re-analysis of the deposited data

How the results depend on the processing

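NCAN was called under each of the 18 alternatives, and ASIC1 under each but the replicate block, limma on FPKM and the 4 that leave out a library. For the count of 2 genes in SA2Q+gRNA against SA2+gRNA, the alternatives gave 15 (no filter), 133 (only the 4 libraries), 119 (without the 2 libraries that stood apart), 36 (length and GC offset), 33 (replicate block with that offset), 55 (DESeq2), 1 (limma) and 1 (replicate block), and 350 in a fit of SA2Q+gRNA, SA2+gRNA and SA2Q, which was chosen after seeing the data, as was a robust fit with 2. Leaving out each library gave 1 to 5, the 5 without SA2+gRNA replicate 2. For the ADAR1 pair the count of 158 became 380 without a filter, 94 with the replicate block, and 17 to 2083 without each library, the 2083 without SA1Q+gRNA replicate 2. For SA2Q against ctrl the count of 14 became 41 without a filter and 2 to 28 without each library. The test of the difference between the pairs gave 0, 8 without a filter, and 0 to 326 without each library. Over 76 named genes and 1364 recomputed values, 1 turned sign, ACTB at 0.01 without SA2Q+gRNA replicate 1 (adjusted p = 0.999, edgeR), 6 lost a call and 155 gained one.

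Replicate numbers did not pair these libraries: the deviations of same-numbered libraries of SA2Q+gRNA and SA2+gRNA correlated at -0.006 across genes, and the replicate block left 1 call. GC content went with the difference between the SA2Q+gRNA replicates (Spearman's rho -0.42 across genes) and less with the change itself (-0.14); its part in the calls was not tested beyond the offset, all 36 of whose calls were among the 119. With 2 libraries per group, small changes lie near the limit of detection. The simulated data hold no library that stands apart.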
